A study of Homo sapiens with 12 samples.

Results

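The drug metabolism enzymes and transporters measured here were 111 of the 60671 genes in the deposited count table. Their symbols begin with CYP1 to CYP4 (36 genes), UGT1A (9), UGT2 (10), SULT1 or SULT2 (11), GSTA, GSTM, GSTP, GSTT or MGST (16), ABCB (9), ABCC (11) or ABCG (5), and 4 more were named singly: NR1I2, NR1I3, AHR and POR. Pseudogenes and antisense genes were excluded. The rule was read as CYP families 1 to 4, so 16 coding CYP genes of higher family numbers that share the first letters stayed out. Of these, 4 were tested, and under SOX9 induction 0 were called by edgeR and 0 had an unadjusted p under 0.05. Of all genes tested, 2.97% were called and 13.8% had such a p.

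All libraries came from LS180, an established human colorectal cancer line that is widely used to study intestinal drug metabolism. The groups were LS180 with inducible V5-tagged wild-type SOX9 after 24 h in 0.5 µg/ml doxycycline and without it, LS180 with inducible V5-tagged M303 with and without doxycycline, and LS180 with inducible GFP with and without doxycycline. M303 is a truncated form of SOX9, an intestinal stem and progenitor cell transcription factor. Each of the 6 groups had 2 libraries, 12 in all. The labels do not state whether a line is 1 clone or a pool, and because no line carries more than 1 construct, construct and line cannot be told apart. Whether duplicates were separate cultures is not stated; the p-values rest on the spread between duplicates, which may be technical.

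Drug metabolism runs in steps. Cytochrome P450 enzymes, fed with electrons by the reductase POR, oxidise foreign compounds; UDP-glucuronosyltransferases (UGT), sulfotransferases (SULT) and glutathione transferases (GST, MGST) then attach a polar group, and pumps of the ABC family carry drugs and their conjugates across membranes. The receptors NR1I2 (known as PXR), NR1I3 (CAR) and AHR sense foreign compounds and switch many of these genes on. In the intestine the system limits how much of an oral drug enters the blood.

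Of the 111 genes, 11 had no count in any library, 74 passed the filter on low counts and were tested, and 51 had a mean of at least 1 CPM (counts scaled to the size of the library) over the 12 libraries. Totals ranged from 31012775 to 48529770 counts per library. The induced construct was visible in SOX9 itself, which averaged 736 CPM with and 369 CPM without doxycycline in the SOX9 line, 843 and 383 CPM in the M303 line, and 388 and 396 CPM in the GFP line. Colorectal epithelium markers summed to 10191 to 12419 CPM per library, with all 11 at a mean of at least 1 CPM. Fibroblast markers summed to at most 2.92 CPM and endothelial markers to at most 0.460 CPM. Of 9 hepatocyte markers 2 reached 1 CPM (SERPINA1 and CPS1), while ALB and CYP7A1, which define hepatocytes, were at 0 in every library. Blood and immune markers summed to 579 to 591 CPM in SOX9 libraries with doxycycline and to 39.5 to 56.8 CPM in the other 10, nearly all from LYZ, which intestinal Paneth cells also make; PTPRC, HBB and HBA1 reached at most 0.122 CPM and CD3E was at 0.

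The promoters of a fallen and a risen gene are shown because UGT1A1 and ABCC4 had the smallest adjusted p-values of the members in each direction. RefSeq gives a promoter for 87 of the 111 members (build GRCh38.p14), and for each the 250 bases before the annotated start are printed on the strand of the gene. UGT1A1 lies at chr2:233760020-233760269, plus strand, and ABCC4 at chr13:95301452-95301701, minus strand. Capitals mark matches to ACAAAG or ACAATG, the core letters bound by SOX factors, or GCGTG, the core bound by AHR with its partner, on either strand.
UGT1A1: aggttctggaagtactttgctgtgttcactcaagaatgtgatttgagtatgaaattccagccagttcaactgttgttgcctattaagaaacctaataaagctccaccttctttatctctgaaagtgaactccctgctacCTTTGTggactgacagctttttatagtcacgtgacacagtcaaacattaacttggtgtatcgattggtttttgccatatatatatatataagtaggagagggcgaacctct
ABCC4: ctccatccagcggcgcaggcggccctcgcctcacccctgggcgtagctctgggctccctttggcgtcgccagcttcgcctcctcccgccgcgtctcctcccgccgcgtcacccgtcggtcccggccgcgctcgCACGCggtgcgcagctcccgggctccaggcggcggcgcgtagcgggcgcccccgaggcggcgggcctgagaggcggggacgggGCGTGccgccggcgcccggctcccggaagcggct
The UGT1A1 window held 1 match, CTTTGT, which is ACAAAG read on the opposite strand, 111 to 106 bases before the start. The ABCC4 window held GCGTG 34 to 30 bases before the start and again, on the opposite strand (CACGC), 117 to 113 bases before it. Among all 35116 promoter windows of the table, 13.7% held ACAAAG, 9.29% ACAATG and 32.2% GCGTG on either strand, so such matches are common. Of the other called members, the CYP4X1 window held ACAATG 193 to 188 bases before the start and GCGTG at 78 to 74 and, on the opposite strand, 44 to 40 bases before it. The CYP2J2 window held GCGTG 134 to 130 bases before the start, and those of CYP2S1 and GSTA4 held none of the 3 motifs.

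Levels of the family were set side by side per length, as RPKM (CPM per kilobase of annotated exon). GSTP1, a glutathione transferase abundant in many carcinomas, stood first at a mean of 546 RPKM and took 66.4% to 72.2% of all GST and MGST counts. CYP2S1, an extrahepatic P450, followed at 71.3 RPKM, ahead of the membrane-bound MGST1 at 37.1, UGT1A1, the bilirubin-conjugating enzyme, at 31.7, and POR at 20.8 RPKM. Of the pumps, ABCC1 (MRP1) averaged 14.8 RPKM, the mitochondrial carrier ABCB10 14.4 RPKM and ABCB1 (P-glycoprotein, the multidrug efflux pump) 5.25 RPKM. AHR stood at 8.18 RPKM and NR1I2 at 2.60 RPKM. In contrast, CYP3A4, the main intestinal P450 for drugs, averaged 0.0826 RPKM (0.279 CPM). ABCG2 (breast cancer resistance protein) averaged 0.0465 RPKM (0.260 CPM) and NR1I3 0.0621 RPKM (0.201 CPM). SULT1E1, the estrogen sulfotransferase, had no count in any library, and GSTA1 averaged 0.0444 RPKM (0.0561 CPM).

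**Figure D1:**
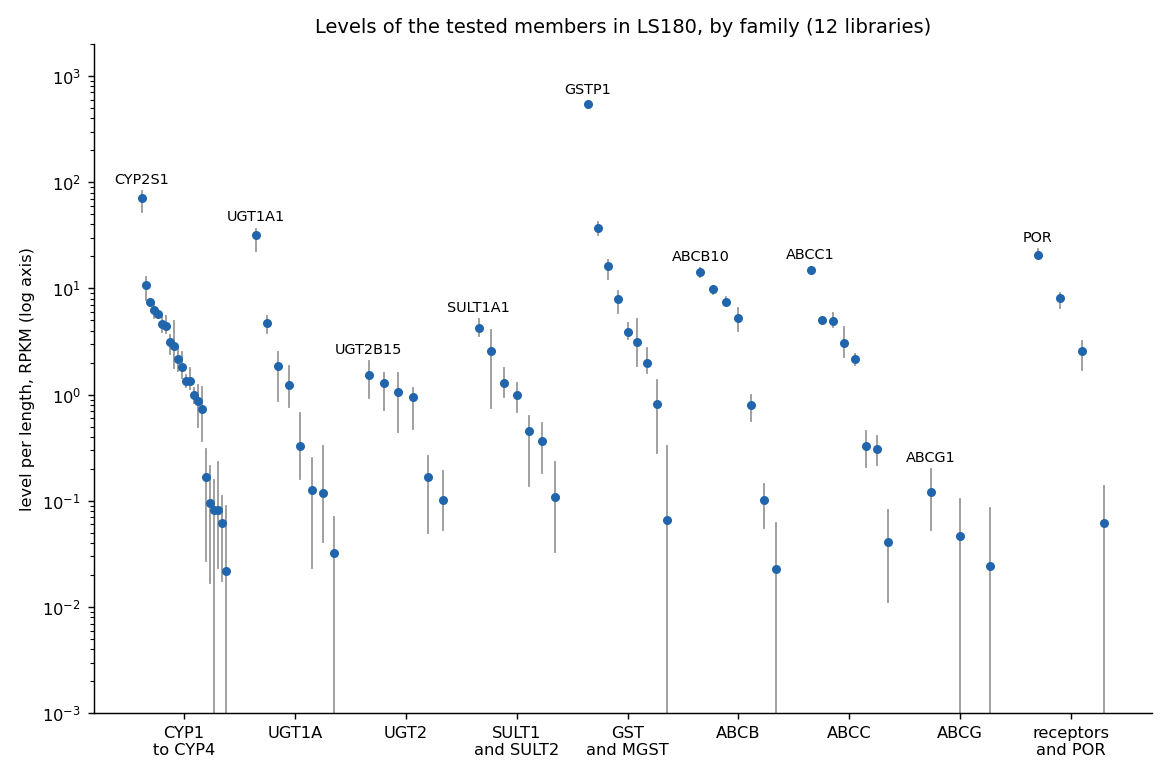
Mean level of each tested member over the 12 libraries (points, RPKM, log axis) by family, with the range over libraries as grey lines, which run to the axis where a library had 0. GSTP1 stands highest at 546 RPKM, and CYP2S1, UGT1A1, ABCB10, ABCC1 and POR lead their families.

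UGT1A levels need the layout of the locus. The 9 UGT1A genes on chromosome 2 differ in their first exons and share exons that follow. The counter did not count reads that overlap several genes. Of the exon bases of the 9 genes, 40.6% to 80.0% are shared with another gene. Bases ahead of the common exons can be shared too. In the UGT1A3 first exon 414 bases also belong to UGT1A6, and 404 shared bases lie within a UGT1A6 block. For UGT1A1 the unshared bases were an 882-base first exon and a 1336-base stretch of an alternative last exon. Reads in that second stretch may come from any UGT1A transcript that runs through it, and these sources cannot be told apart. Per kilobase of unshared exon, UGT1A1 averaged 63.6 CPM, UGT1A6 13.4, UGT1A10 6.42 and UGT1A8 3.25 CPM, and the other 5 genes at most 0.883 CPM. UGT1A1 took 77.2% to 81.5% of the counts given to the UGT1A genes in each library.

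**Figure D2:**
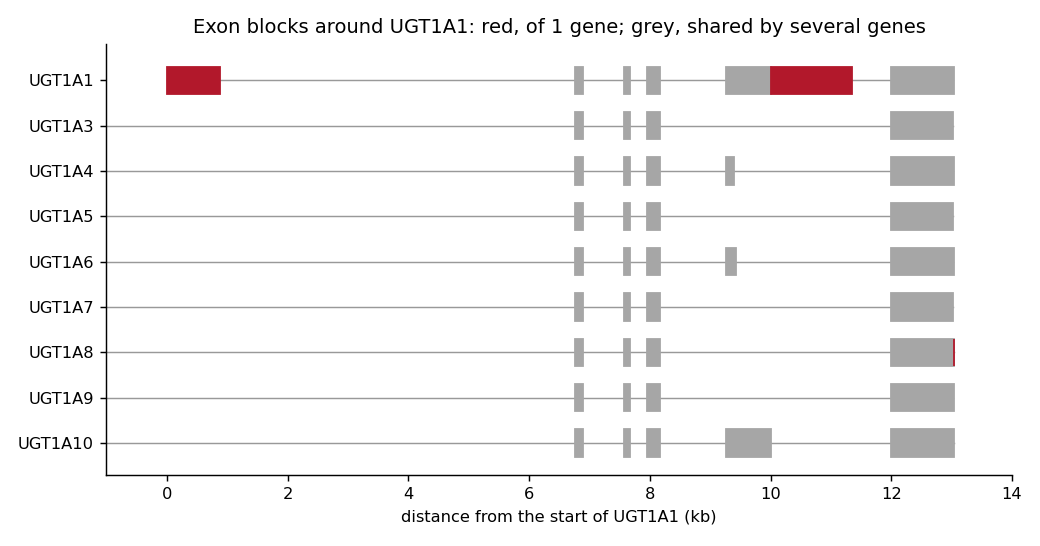
Exon blocks of the 9 UGT1A genes around UGT1A1, by distance from the UGT1A1 start in kb. Red blocks belong to 1 gene and can receive counts; grey blocks are shared and lose them; UGT1A1 has an 882-base and a 1336-base red block.

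The first comparison asked how wild-type SOX9 changes these genes within 24 h. In the SOX9 line with doxycycline, set against the same line without it, ABCC4, CYP4X1 and GSTA4 rose and UGT1A1, CYP2S1 and CYP2J2 fell. That is 6 of 74 tested members (8.11%), where 2.97% of the 18219 genes tested were called, 1.81% higher and 1.16% lower. Calls came from edgeR's quasi-likelihood test at a Benjamini-Hochberg adjusted p under 0.05 over all genes tested, and fold changes are log2. A further view needs no test: both induced SOX9 libraries lay below the other 10 libraries in 12 of the 74 members (16.2%) and above them in 8 (10.8%), against 7.23% and 7.70% of all genes tested. The calls of ABCC4, UGT1A1 and CYP2S1 held without replicate 2 of SOX9 with doxycycline, and those of CYP4X1, CYP2J2 and GSTA4 did not. DESeq2 kept the 6 calls and added ABCB1, NR1I2 and CYP4F2. The share of all genes called by DESeq2 is not given here, so the added calls cannot be set against it. An unadjusted p under 0.05 was found for 25 members (33.8%) and for 13.8% of all genes by edgeR. The median log2 fold change of the tested members was -0.11, against 0.006 for all genes. In bulk RNA, fewer cells of a type and less RNA per cell cannot be told apart.

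**Figure D3:**
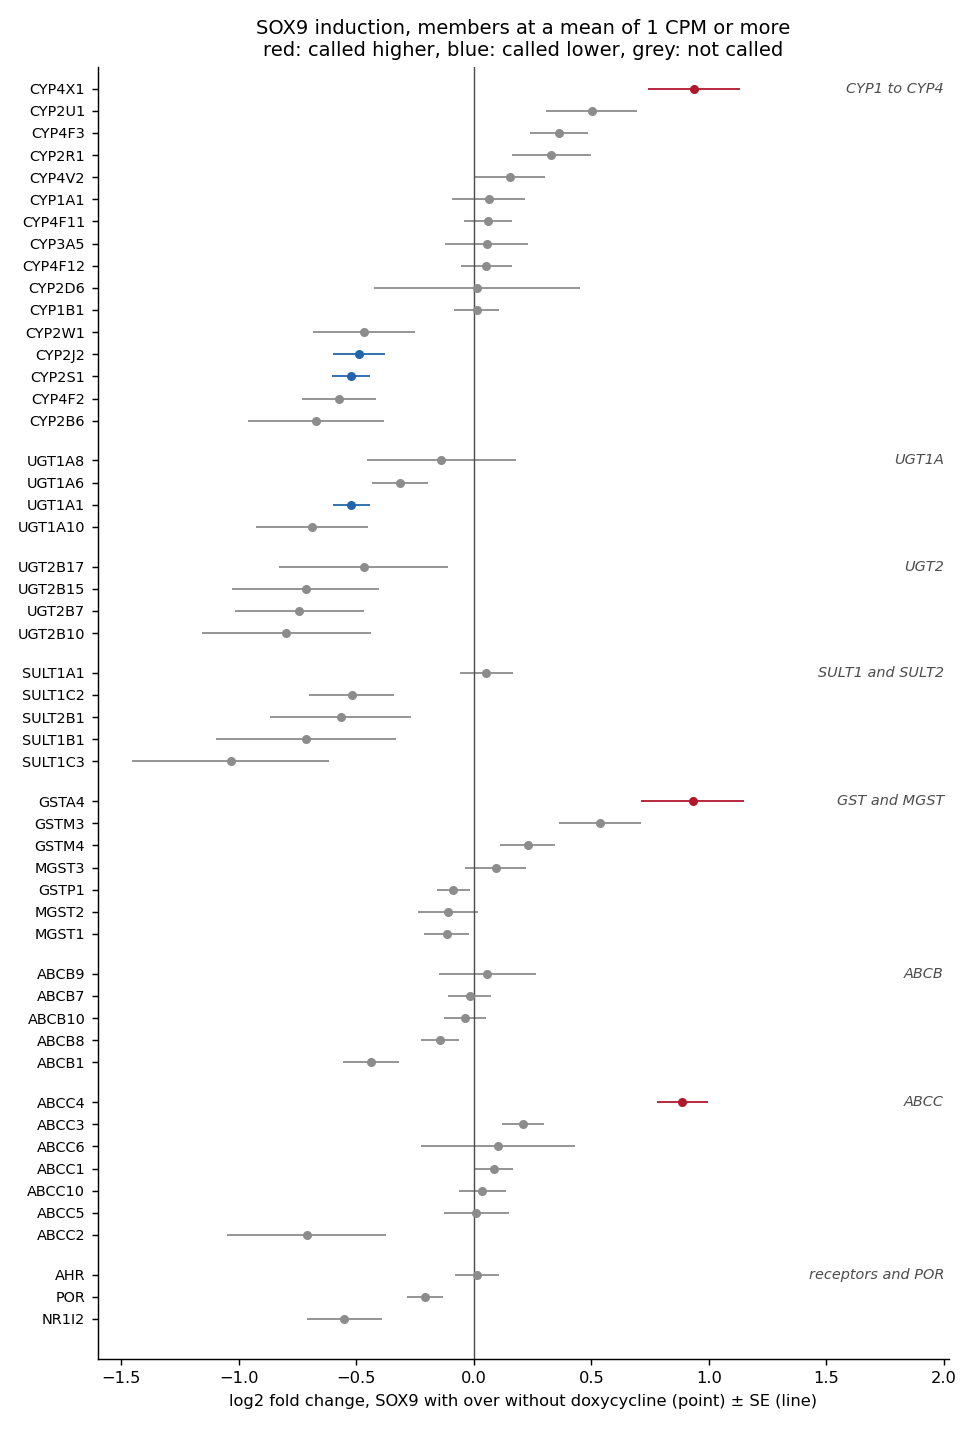
Log2 fold change of SOX9 induction (points) with its standard error (lines) for the 51 members at a mean of 1 CPM or more, by family. The 3 red members (CYP4X1, GSTA4, ABCC4) were called higher and the 3 blue ones (CYP2J2, CYP2S1, UGT1A1) lower; all 4 UGT1A and all 4 UGT2 genes shown lie left of 0.

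Among the P450 enzymes, 1 of 22 tested rose and 2 fell. An unadjusted p under 0.05 by edgeR was found for 8 of the 22 (36.4%, against 13.8% of all genes). CYP2S1 (chromosome 19, 41193210 to 41207539) had 143 and 147 CPM in SOX9 libraries with doxycycline, against 193 and 224 CPM without it. In the M303 line it had 193 and 184 CPM with and 213 and 192 CPM without doxycycline, and in the GFP line 203 and 196 CPM with and 218 and 216 CPM without. The induced SOX9 libraries were the lowest of the 12 and did not overlap any other group. Its change in log2 was -0.52 (SE 0.08, edgeR adjusted p = 3.65e-04). CYP2J2, an epoxygenase of arachidonic acid, had 23.1 and 24.3 CPM with and 34.1 and 32.3 CPM without doxycycline in the SOX9 line, and 30.8 to 38.4 CPM in the other 10 libraries. Its log2 fold change was -0.49 (SE 0.11, edgeR adjusted p = 0.0139). Without replicate 1 of SOX9 without doxycycline, or either replicate with it, the adjusted p was 0.0756 to 0.175. CYP4X1, an orphan P450 of the CYP4 family, had 10.8 and 12.1 CPM with and 6.37 and 5.57 CPM without doxycycline, and its fold change was 0.94 in log2 (SE 0.20, edgeR adjusted p = 0.00797). The other 10 libraries reached at most 8.37 CPM, so the induced SOX9 libraries stood alone at the top. That call was lost without replicate 2 of SOX9 with doxycycline (edgeR adjusted p = 0.122) or replicate 2 without it (edgeR adjusted p = 0.101).

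The other P450 enzymes were not called. CYP4F2, a fatty acid and vitamin K hydroxylase singled out after its values were seen, had 7.42 and 7.57 CPM with and 11.2 and 11.1 CPM without doxycycline in the SOX9 line (log2 fold change -0.58, SE 0.16, edgeR adjusted p = 0.0533). CYP4F3 and CYP2R1, also singled out after their values were seen, went the other way in the SOX9 line. CYP4F3 had 30.7 and 27.5 CPM there with doxycycline, against at most 26.6 CPM in the other 10 libraries. CYP2R1 had 10.9 and 12.6 CPM, against at most 10.6 CPM in those 10. The xenobiotic-inducible CYP1A1 averaged 16.3 and 15.6 CPM, CYP1B1 32.8 and 32.5 CPM, CYP3A5 9.71 and 9.31 CPM, CYP4F11 29.8 and 28.6 CPM, and CYP4F12 34.8 and 33.6 CPM with and without doxycycline in that line. CYP2B6 averaged 2.13 CPM with and 3.43 CPM without it (log2 fold change -0.67, SE 0.29, edgeR adjusted p = 0.293), and CYP2W1 4.47 and 6.197 CPM (edgeR adjusted p = 0.342). CYP3A4 had a log2 fold change of 0.96 with an SE of 1.11, too few counts to show a difference of that size.

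Of the glucuronosyltransferases, 1 of 8 tested UGT1A genes fell and none of 6 tested UGT2 genes was called (3 had an unadjusted p under 0.05 by edgeR). UGT1A1 (chromosome 2, 233760270 to 233773300) had 100.8 and 99.1 CPM in SOX9 libraries with doxycycline, against 139 and 148 CPM without it. It had 136 and 143 CPM with and 162 and 151 CPM without doxycycline in the M303 line, and 158 and 145 CPM with and 162 and 149 CPM without in the GFP line. The induced SOX9 libraries were again the lowest of the 12, and the fold change was -0.52 in log2 (SE 0.08, edgeR adjusted p = 2.83e-04). All 8 tested UGT1A genes had a log2 fold change under 0 in this comparison, as did 5 of the 6 UGT2 genes, where 8949 of 18219 genes did. So did 6 of 7 SULT and 6 of 7 ABCB genes, but 9 of 22 CYP, 3 of 9 GST or MGST and 2 of 8 ABCC genes. Of the UGT1A and UGT2 genes, 4 and 4 averaged at least 1 CPM. Under M303 induction all 6 UGT2 genes were under 0 (median -0.24, highest -0.13), and under GFP induction their median was -0.26. The UGT1A medians there were -0.05 and -0.06. UGT1A6, which conjugates planar phenols, averaged 20.8 CPM with and 25.9 CPM without doxycycline (log2 fold change -0.31, SE 0.12, edgeR adjusted p = 0.201), and UGT1A10, a gut enzyme, 3.68 and 6.02 CPM (log2 fold change -0.69, SE 0.24, edgeR adjusted p = 0.154). UGT2B7, which conjugates opioids and steroids, averaged 1.86 and 3.14 CPM (log2 fold change -0.74, SE 0.27, edgeR adjusted p = 0.191), and UGT2B17 1.38 and 1.88 CPM. Beside these genes, the 11 epithelial markers summed to 10191 and 10193 CPM with and 11023 and 12365 CPM without doxycycline in the SOX9 line. KRT20, of differentiated colonocytes, had 2.78 and 3.33 CPM with and 9.85 and 8.50 CPM without doxycycline in the SOX9 line. MUC2, of goblet cells, had 20.7 and 24.8 CPM with and 62.7 and 69.3 CPM without. Not all 11 fell: EPCAM averaged 1025 CPM with and 1022 CPM without doxycycline, and CDH1 440 and 415 CPM. KRT8, the largest part of the sum, averaged 5359 and 5996 CPM. KRT18, CDX1, CDX2, VIL1, LGALS4 and CDH17 also averaged lower with doxycycline. The part of these markers in these results was not tested.

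None of the 7 tested sulfotransferases was called, and 2 had an unadjusted p under 0.05 by edgeR (28.6%, against 13.8% of all genes). SULT1A1, the main phenol sulfotransferase, averaged 39.0 CPM with and 37.6 CPM without doxycycline in the SOX9 line. SULT1B1, a gut thyroid hormone sulfotransferase, averaged 1.85 and 3.001 CPM (log2 fold change -0.71, SE 0.38, edgeR adjusted p = 0.431), SULT2B1, for cholesterol and hydroxysteroids, 2.79 and 4.15 CPM (edgeR adjusted p = 0.419) and SULT1C3 1.25 and 2.63 CPM (edgeR adjusted p = 0.248). SULT1A3 and SULT1A4 are near-identical copies, and reads that map to both are not counted. Of their exon bases, 70.7% and 86.7% are also shared with the annotated genes SLX1A-SULT1A3 and SLX1B-SULT1A4, where reads are lost too. Their 0 to 2 counts per library are therefore uncertain.

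Of 9 tested glutathione transferases 1 rose. By edgeR 3 of the 9 had an unadjusted p under 0.05 (33.3%, against 13.8% of all genes). GSTA4, which detoxifies the lipid peroxidation product 4-hydroxynonenal, had 10.9 and 10.4 CPM with and 5.81 and 5.38 CPM without doxycycline in the SOX9 line (log2 fold change 0.93, SE 0.22, edgeR adjusted p = 0.0207). It had 5.98 and 7.07 CPM with and 5.81 and 5.52 CPM without doxycycline in the M303 line, and 4.89 and 7.47 CPM with and 3.91 and 5.83 CPM without in the GFP line. GFP groups overlapped each other, while in the M303 line both libraries with doxycycline lay above both without. The induced SOX9 libraries were the 2 highest. The call was lost without any 1 of the 4 SOX9 libraries, with edgeR adjusted p between 0.0544 and 0.155. Over the fits without 1 library, SOX9 induction of GSTA4 exceeded M303 induction by 0.61 to 0.85 and GFP induction by 0.27 to 0.93 in log2. No GST or MGST gene was called in either difference (lowest edgeR adjusted p 0.646 and 0.534). GSTP1 averaged 924 CPM with and 981 CPM without doxycycline in the SOX9 line (log2 fold change -0.09, SE 0.07, 95% CI -0.24 to 0.06), MGST1 268 and 291 CPM (95% CI -0.31 to 0.08), and MGST2 50.8 and 54.8 CPM. GSTA2, singled out after its values were seen, had 20 and 0 counts in SOX9 libraries with doxycycline and 0 and 0 without, and 4 and 14 counts with and 0 and 0 without in the M303 line. With 1 library of 2 carrying all the counts in the SOX9 line, no fold is given.

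Of the transporters, 1 of 8 tested ABCC genes rose, and none of 7 ABCB or 3 ABCG genes was called. Unadjusted p was under 0.05 by edgeR for 3 ABCC (37.5%), 1 ABCB (14.3%) and 0 ABCG genes, against 13.8% of all genes. ABCC4 (MRP4, an efflux pump for cyclic nucleotides, nucleotide drugs and conjugates, at chromosome 13, 95019835 to 95301475) had 37.6 and 37.7 CPM with and 21.3 and 19.4 CPM without doxycycline in the SOX9 line. In the M303 line it had 28.9 and 26.5 CPM with and 19.7 and 21.6 CPM without, and in the GFP line 31.9 and 29.9 CPM with and 19.7 and 19.98 CPM without. In every line both libraries with doxycycline were above both libraries without. The log2 fold change in the SOX9 line was 0.89 (SE 0.11, edgeR adjusted p = 2.11e-05). ABCB1 had 25.8 and 27.0 CPM with and 37.2 and 34.3 CPM without doxycycline in the SOX9 line, against 31.9 to 42.5 CPM in the other 10 libraries. Its log2 fold change was -0.44 (SE 0.12, edgeR adjusted p = 0.0519), just short of the threshold in the main test. DESeq2 gave an adjusted p of 0.0205 and edgeR with only the 4 SOX9 libraries 0.0356, both past it. Leaving out 1 library moved it between 0.0281 and 0.311 (edgeR), with 6 of the 12 fits, each without a GFP library or an uninduced M303 library, past the threshold. Over the 12 fits the ABCB1 log2 fold change was also below 0 with M303 (-0.34 to -0.02) and with GFP (-0.33 to -0.02). Over the same fits, SOX9 induction of ABCB1 minus M303 induction was -0.43 to -0.10, and minus GFP induction -0.42 to -0.11. Such ranges over fits are not confidence intervals of the differences. In neither difference had any of the 7 ABCB genes an unadjusted p under 0.05 by edgeR, where 6.99% and 9.01% of all genes had. ABCC1 averaged 115 CPM with and 108 CPM without doxycycline (95% CI of the log2 fold change -0.08 to 0.25), ABCC3, a basolateral conjugate pump, 54.5 and 47.2 CPM (edgeR adjusted p = 0.290), and ABCC2, its apical counterpart, 1.83 and 3.02 CPM (edgeR adjusted p = 0.353). ABCB8 averaged 83.8 and 92.6 CPM and ABCB10 63.8 and 65.5 CPM, and ABCG2 was too low to compare, at 0.122 and 0.276 CPM.

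Neither POR nor any of the 3 receptors was called, and 2 of these 4 genes had an unadjusted p under 0.05 by edgeR. NR1I2 had 11.8 and 9.11 CPM with and 15.5 and 15.3 CPM without doxycycline in the SOX9 line, or -0.55 in log2 (SE 0.16, edgeR adjusted p = 0.0677), while DESeq2 gave 0.0276 and edgeR without 1 library 0.0425 to 0.609, past the threshold without either replicate of GFP with doxycycline. Over the fits without 1 library the NR1I2 log2 fold change was -0.43 to -0.11 with M303 and -0.28 to 0.004 with GFP. AHR averaged 66.8 CPM with and 66.3 CPM without doxycycline in the SOX9 line (log2 fold change 0.01, 95% CI -0.18 to 0.21). Of the AHR exon bases 35.2% are shared with another gene, and reads there were not counted. POR averaged 117 CPM with and 135 CPM without (log2 fold change -0.21, SE 0.08, edgeR adjusted p = 0.194).

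**Figure D4:**
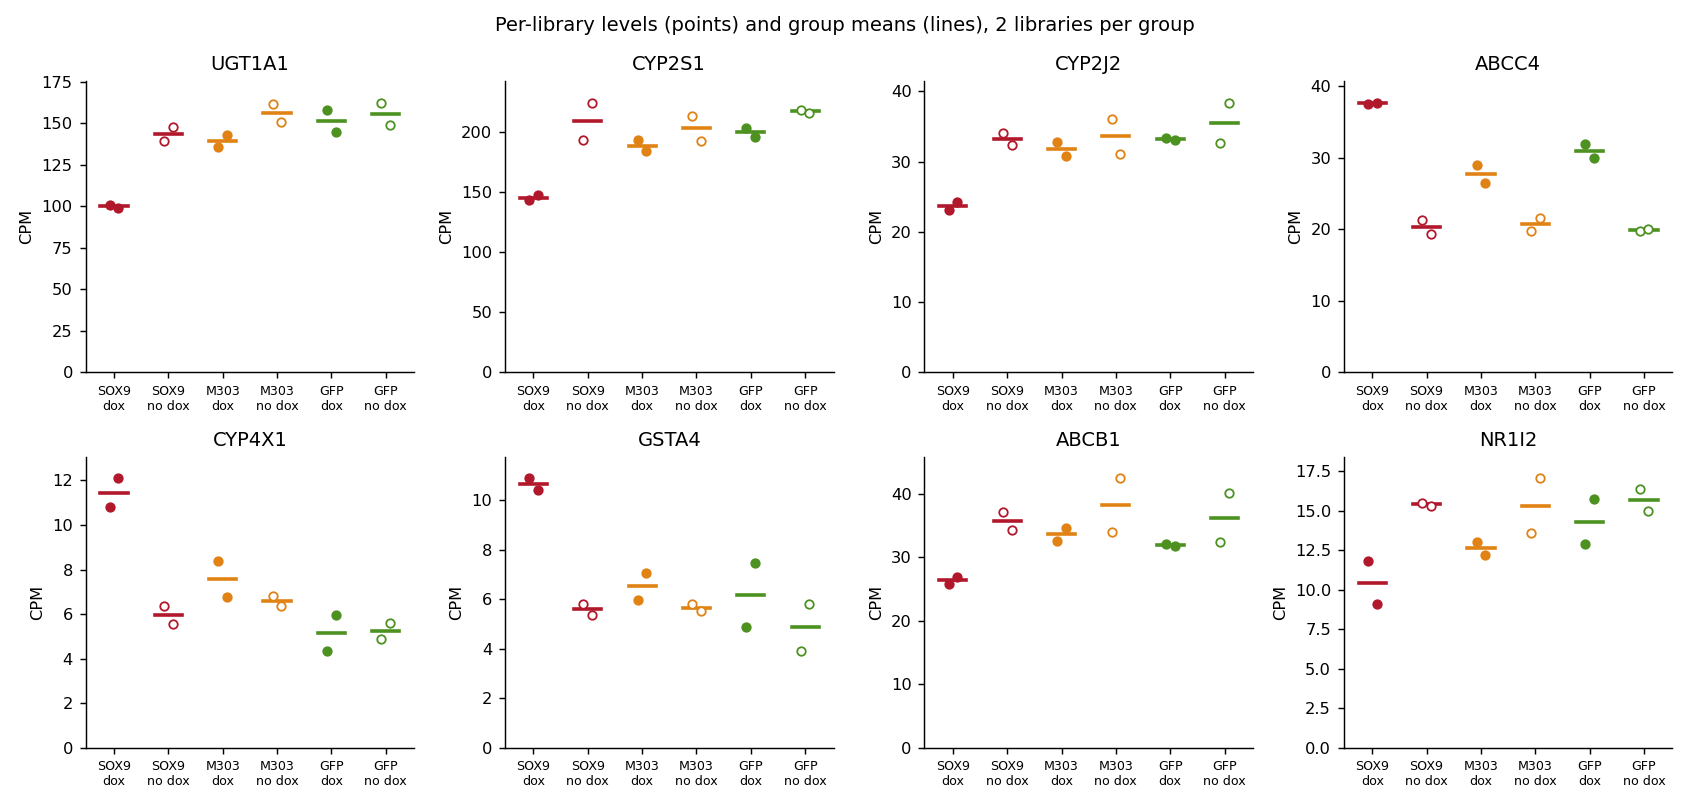
CPM of 8 members in each library (points) with the group mean (lines) for the 6 groups; filled points are with doxycycline. Induced SOX9 libraries are lowest for UGT1A1, CYP2S1, CYP2J2, ABCB1 and NR1I2 and highest for CYP4X1 and GSTA4, and ABCC4 is higher with doxycycline in all 3 lines.

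M303 and GFP were the next comparisons, which ask whether the truncated form or doxycycline with GFP moves the same genes. No member was called in M303 induction, where 0.00549% of all genes were called, nor in GFP induction, where 0% were. Unadjusted p was under 0.05 for 5 of 74 members in the M303 line (6.76%, against 3.63% of all genes) and 2 of 74 in the GFP line (2.7%, against 3.18%), and DESeq2 called 0 and 1. ABCC4 was the member that came nearest. Its log2 fold change was 0.42 with M303 (SE 0.11, edgeR adjusted p = 1.00) and 0.64 with GFP (SE 0.11, edgeR adjusted p = 0.169), the lowest adjusted p of all genes in the GFP line; DESeq2 gave 0.00119 there. After the values in the 3 lines were seen, the mean of the M303 and GFP inductions was added as 1 contrast. ABCC4 rose by 0.53 (SE 0.08, edgeR adjusted p = 0.00912), 1 of the 2 genes called of 18219 (0.011%), the other being SOX9. That call was lost without replicate 1 or 2 of GFP without doxycycline, or replicate 1 of M303 with or without it (edgeR adjusted p 0.0561 to 0.121). Doxycycline itself and the constructs cannot be told apart for ABCC4, since every line got both together.

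**Figure D5:**
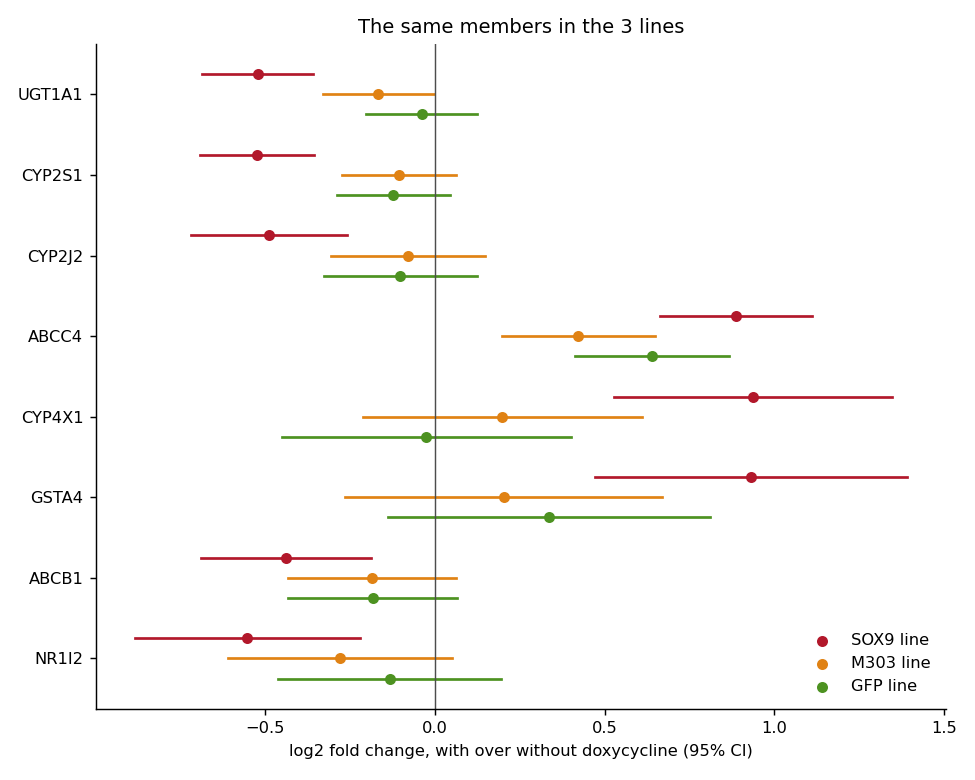
Log2 fold change with over without doxycycline (points) and its 95% confidence interval (lines) for 8 members in the SOX9, M303 and GFP lines. ABCC4 lies right of 0 in all 3 lines. UGT1A1, CYP2S1, CYP2J2, ABCB1 and NR1I2 each lie farther left in the SOX9 line than in the M303 and GFP lines.

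Differences between inductions were then tested as interaction terms. For UGT1A1, SOX9 induction minus GFP induction was -0.48 on the log2 scale (SE 0.11, 95% CI -0.71 to -0.25, edgeR adjusted p = 0.0369). It was the 1 member called of 74 (1.35%), where 0.895% of all genes were called, 0.631% higher and 0.263% lower. The call was lost without replicate 2 of SOX9 without doxycycline, either replicate of SOX9 with it, replicate 2 of GFP without it or replicate 1 of GFP with it (edgeR adjusted p 0.112 to 0.196). With all libraries of both lines kept it was lost too, with the replicate block (0.0700) and in a fit of the SOX9 and GFP groups alone (0.107). Against M303 induction no member was called, where 0.489% of all genes were, 0.357% higher and 0.132% lower; the unadjusted p was under 0.05 for 10 of 74 members (13.5%, against 6.99% of all genes), and 0 were called by DESeq2. UGT1A1 differed there by -0.36 (95% CI -0.59 to -0.13, edgeR adjusted p = 0.307), CYP2S1 by -0.42 (95% CI -0.65 to -0.18, edgeR adjusted p = 0.177, or 0.0268 without replicate 1 of SOX9 without doxycycline) and CYP4X1 by 0.74 (95% CI 0.16 to 1.32, edgeR adjusted p = 0.527). For ABCC4 the SOX9 rise exceeded that of GFP by 0.25 (95% CI -0.07 to 0.57, edgeR adjusted p = 0.685) and that of M303 by 0.46 (95% CI 0.15 to 0.78, edgeR adjusted p = 0.380). The 2 differences share the SOX9 libraries, so they are not independent.

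M303 induction differed from GFP induction in 0 of 74 members (4 with an unadjusted p under 0.05, or 5.41% against 3.94% of all genes, edgeR; 0.00549% of all genes called). Without doxycycline, none of the 74 members was called between the SOX9 and GFP lines (0% of all genes) or the M303 and GFP lines (0.00549%), with 4 (5.41%) and 3 (4.05%) members at an unadjusted p under 0.05 by edgeR, against 4.75% and 6.09% of all genes, and 0 and 0 called by DESeq2.

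A wider list of 71 genes of drug metabolism and its control, outside the members, gave 63 tested genes. Under SOX9 induction 1 rose and 4 fell, 7.94% against 2.97% of all genes, with a median log2 fold change of -0.07. AKR1B10, an aldo-keto reductase of the gut, had 25.0 and 17.5 CPM with and 41.5 and 43.6 CPM without doxycycline in the SOX9 line, or -0.99 in log2 (SE 0.14, edgeR adjusted p = 1.10e-04). VDR, the vitamin D receptor, fell by 0.36, CES2, the intestinal carboxylesterase, by 0.32, and PAPSS2, which makes the sulfate donor, by 0.31 on the log2 scale (edgeR adjusted p 0.00734, 0.0319 and 0.0296). SLC7A11, the cystine importer that feeds glutathione synthesis, rose by 0.56, with 152 and 165 CPM with and 113 and 103 CPM without doxycycline (SE 0.09, edgeR adjusted p = 5.77e-04). By sub-list, 1 of 13 dimer partners and receptors fell, 1 of 11 NRF2 and glutathione genes rose, 2 of 19 other oxidising, reducing and hydrolysing enzymes fell, 1 of 9 conjugation and cofactor genes fell, and none of 11 carriers was called. Against GFP induction AKR1B10 differed by -0.90 (SE 0.19, edgeR adjusted p = 0.0188). Leaving out replicate 2 of SOX9 with doxycycline, of SOX9 without it or of GFP without it, or replicate 1 of GFP with it, ended that call (edgeR adjusted p 0.0532 to 0.141). Under SOX9 induction the VDR and CES2 calls were lost without replicate 2 of SOX9 without doxycycline or either replicate with it (edgeR adjusted p up to 0.140 and 0.345), and the PAPSS2 call without any 1 of the 4 SOX9 libraries (up to 0.419). Under SOX9 induction 19 of the 63 had an unadjusted p under 0.05 by edgeR (30.2%, against 13.8% of all genes). In M303 and GFP induction DESeq2 called 0 and 0 wider-list genes and edgeR called 0 and 0. Unadjusted p was under 0.05 by edgeR for 2 in M303 induction (3.17%, against 3.63% of all genes). In GFP induction it was for 3 (4.76%, against 3.18%).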

How the data were processed

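The authors deposited raw counts of reads for every gene, after aligning to hg38 with STAR 2.7.0a according to the submitters' processing notes. Per the file headers, the authors counted with featureCounts 2.0.1 and Ensembl release 101, with no paired-end and no strand option, so each mate counts as a read, opposite strands are not separated, and reads of several genes or places are not counted. The table has 60671 genes, 69.3% with a symbol in the name table used; 2 members were named from GENCODE 29.

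From the deposited counts, edgeR 4.0.16 (R 4.3.3) fitted all 12 libraries with 1 mean per group: TMM factors 0.981 to 1.02, filterByExpr, robust quasi-likelihood F-test, 6 residual degrees of freedom, biological coefficient of variation 10.6%, Benjamini-Hochberg over 18219 genes. CPM used the TMM factors, RPKM the deposited exon length. The code was tested on simulated data. No duplicate pair matched within counting noise. Alternatives were DESeq2 1.42.0, RLE factors, no filter, own groups, a replicate block and each library left out.

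The members and lists were chosen with earlier results of these data known. Named genes are a fixed set of 29, every called member, the 3 highest per length in each family and the called genes of the wider list.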

Additional observations from a re-analysis of the deposited data

Results flagged for a closer look

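The SOX9 and GFP inductions differed, by an interaction term of the edgeR fit, for 1 of the 74 members tested and 1 of the 63 wider-list genes, where 0.895% of all genes tested were called. UGT1A1 differed by -0.48 on the log2 scale (SE 0.11, edgeR adjusted p = 0.0369), with 100.8 and 99.1 CPM in the SOX9 line with doxycycline and 139 and 148 CPM without it, and 158 and 145 CPM with and 162 and 149 CPM without it in the GFP line. AKR1B10, a member of the wider list, differed by -0.90 (SE 0.19, edgeR adjusted p = 0.0188), with 25.0 and 17.5 CPM with and 41.5 and 43.6 CPM without doxycycline in the SOX9 line, and 45.7 and 42.7 CPM with and 48.9 and 45.3 CPM without it in the GFP line. Without 1 library the adjusted p ranged from 0.0190 to 0.196 for UGT1A1 and from 7.76e-04 to 0.141 for AKR1B10. The UGT1A1 call was also lost with no library of these lines removed, with the replicate block (0.0700) and in a fit of the SOX9 and GFP groups alone (0.107), while AKR1B10 stayed called in both (0.0311 and 0.0243).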

How the results depend on the processing

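Of the 6 members called under SOX9 induction, ABCC4, UGT1A1 and CYP2S1 stayed called under every alternative run. Leaving out 1 library gave 3 to 9 called members, and 231 (without replicate 2 of SOX9 with doxycycline) to 675 called genes in all. CYP2J2 was lost without replicate 1 of SOX9 without doxycycline or either replicate with it, CYP4X1 without replicate 2 of either SOX9 group, and GSTA4 without any of the 4 SOX9 libraries. ABCB1 ranged from -0.50 to -0.38 (adjusted p 0.0281 to 0.311) and NR1I2 from -0.77 to -0.39 (0.0425 to 0.609) over the 12 fits.

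Members called in GFP induction numbered 1 (ABCC4) with DESeq2 and 1 with no filter. UGT1A1 in SOX9 minus GFP induction was lost with the replicate block (0 called, adjusted p = 0.0700) and with own groups only (0 called, 0.107); no filter called 2 (UGT1A10 added), and leaving out 1 library gave 0 to 2. In SOX9 minus M303 induction leaving out 1 library called 0 to 1 (CYP2S1), and in the added contrast of M303 and GFP together 0 to 1. Over all genes, DESeq2 called 3 in M303 induction, 2 in GFP induction, 139 in SOX9 minus M303 and 2 between the SOX9 and GFP lines, against 1, 0, 89 and 0 in edgeR. No filter called 9, 4, 147 and 17 there, 270 in SOX9 minus GFP (163), 11 in M303 minus GFP (1), 22 between the M303 and GFP lines (1) and 5 in the added contrast (2). Own groups only called 3 in M303 induction and 1 between the SOX9 and GFP lines. Leaving out 1 library gave 1 to 2 in M303 induction, 0 to 9 in GFP induction, 57 to 107 in SOX9 minus M303, 95 to 229 in SOX9 minus GFP, 1 to 12 in M303 minus GFP, 0 to 39 and 0 to 56 between the SOX9 and GFP and the M303 and GFP lines, and 1 to 3 in the added contrast. The cause was not tested.

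Leaving out 1 library turned the sign of 7 of 41 named values under SOX9 induction, 1 of 15 under M303 induction, 7 of 15 under GFP induction, 0 of 15 in SOX9 minus M303, 2 of 15 in SOX9 minus GFP and 1 of 15 in the added contrast, all uncalled. Among them were CYP1A1 (-0.16 to 0.32) and MGST1 (-0.24 to 0.011) under SOX9 induction, CYP2J2 under M303 induction (-0.19 to 0.032), and CYP2J2 (-0.21 to 0.022), CYP4X1 (-0.27 to 0.18) and SLC7A11 (-0.054 to 0.24) under GFP induction. With the replicate block PAPSS2 (adjusted p = 0.0569) and CES2 (0.0587) were lost, all 6 members stayed called, and the block changed no other call among the members under SOX9 induction. Deviations of same-numbered libraries correlated at 0.086, -0.10 and -0.08 in the SOX9, M303 and GFP lines. Over all 15 pairs of groups they ran from -0.33 to 0.28, and 2 of 12 libraries were most like one of their own number. These values cannot decide whether same-numbered libraries share a culture or batch, which the labels do not state. With 2 libraries a group, standard errors (log2) had a median of 0.12 for an induction and 0.17 for a difference between inductions, which limits what could be called, and counts near 0 limit CYP3A4, ABCG2 and NR1I3.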
